A study of Homo sapiens with 4 samples.

Results

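The HOX genes of the 4 human clusters were taken as every row, in any of the 4 tables, whose symbol is HOXA, HOXB, HOXC or HOXD followed by digits alone or by AS and a digit. This gave 44 members among the 23364 gene symbols of the series, of which 36 are coding genes and 8 are antisense transcripts. HOXA and HOXB had 13 members each (11 coding and 10 coding), and HOXC and HOXD had 9 each (7 coding and 8 coding). All 44 matched a gene of GENCODE 29, the GRCh38 annotation used here for position.

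Single-cell RNA was measured in 4 samples of KhES1, an embryonic stem cell line long established from a human embryo. Samples hESC 1 and hESC 2 were stem cells kept in mTeSR-1 medium on Matrigel (day 0). Samples blastoid 3 and blastoid 4 were blastoids, embryo-like aggregates made from the same line: dissociated cells were aggregated in microwells with the ROCK inhibitor Y27632, embedded in a thermoresponsive hydrogel with serum, and then fed iBlastoid medium. The titles of the blastoid samples give day 0 and the names of their tables give day 9, so the grouping follows the description of each sample. All 4 samples come from 1 cell line, and nothing in the labels says that the 2 samples of a group were separate cultures. The p-values against hESC therefore measure only the spread between these samples, which may be technical. Where the library was a block, a p-value measures only how far the difference varied between the 2 blastoid libraries. In each fit the spread was estimated partly from other genes.

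HOX genes encode homeodomain transcription factors that give cells a position along the head-to-tail axis. Each cluster is a row of genes on 1 chromosome, and genes at the same place in different clusters share a paralog number and a common ancestor. Low numbers are typical of hindbrain and anterior trunk, high numbers of the tail, limbs and urogenital region, and during gastrulation low numbers are switched on before high ones. WNT signals, CDX factors and retinoic acid are known to activate the clusters, and Polycomb complexes keep them silent in pluripotent cells.

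The kept cells (at least 500 genes, at most 20% mitochondrial UMIs, no doublet call) numbered 2238 and 3175 in the hESC samples and 2278 and 1933 in the blastoids, with a median of 4996 to 8811 UMIs per cell and 13255214 to 17922100 UMIs per sample. A UMI is a tag that counts 1 captured molecule once whatever the transcript's length, so counts per 1000000 UMIs (CPM) can be set side by side between genes, apart from differences in capture. Samples of the same group shared cell barcodes: 1317 were in both hESC tables and 1035 in both blastoid tables, against 6 to 14 between groups. Among kept cells such barcodes were carried by 26 in hESC 1, 1310 in hESC 2, 0 in blastoid 3 and 1023 in blastoid 4, so each comparison was also run without them, and the summed values of blastoid 4 without them stand beside the main ones. Markers placed 87.7% and 76.6% of the hESC cells in a pluripotent-like class. The other 12.3% and 23.4% were in a shallow cluster (median 1037 and 1016 UMIs per cell) that was left unnamed for its depth. In that cluster 11 pluripotent-like and 5 trophectoderm/amnion-like markers reached the naming threshold. Of the blastoid cells, 77.2% (blastoid 3) and 61.2% (blastoid 4) were mesoderm/mesenchyme-like, 18.1% and 32.8% trophectoderm/amnion-like and 3.69% and 5.64% pluripotent-like. No cluster was hypoblast/endoderm-like, the class to which the label blastoid would also point, and the summed level of the 11 measured markers of that class was 8.21 to 25.9 CPM in the 3 named blastoid classes. Class names were rebuilt from markers, and HOX genes were left out of the clustering.

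In the stem cells no HOX member was listed at all: 0 of 44 in hESC 1 and 0 of 44 in hESC 2. Blastoid 3 listed all 44 and blastoid 4 listed 42, lacking HOXD1 and HOXB-AS2. The hESC tables hold few genes seen in 1 or 2 barcodes (7 and 112 in hESC 1) but 790 seen in 3, so absence from a table was read as presence in no more than 2 of its barcodes. Fold bounds were therefore set against 9.15 UMIs over both hESC samples, the exact upper 95% limit for 4 observed, with 1 UMI taken per barcode.

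HOXB gave the largest part of the signal in the blastoids. Its members summed to 590.0 CPM in blastoid 3 and 420.7 CPM in blastoid 4, against 227.6 and 137.5 CPM for HOXA, 102.4 and 57.9 CPM for HOXC, and 16.1 and 11.1 CPM for HOXD. The order HOXB, HOXA, HOXC, HOXD was the same in both samples, and every cluster was higher in blastoid 3. HOXB lies at chr17:48528526-48729178, HOXC at chr12:53938765-54056030 and HOXD at chr2:176092891-176190907 (GRCh38, from the first to the last member). The spread among members was wide, with 17 members at 10 CPM or more and 9 below 1 CPM.

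**Figure D1:**
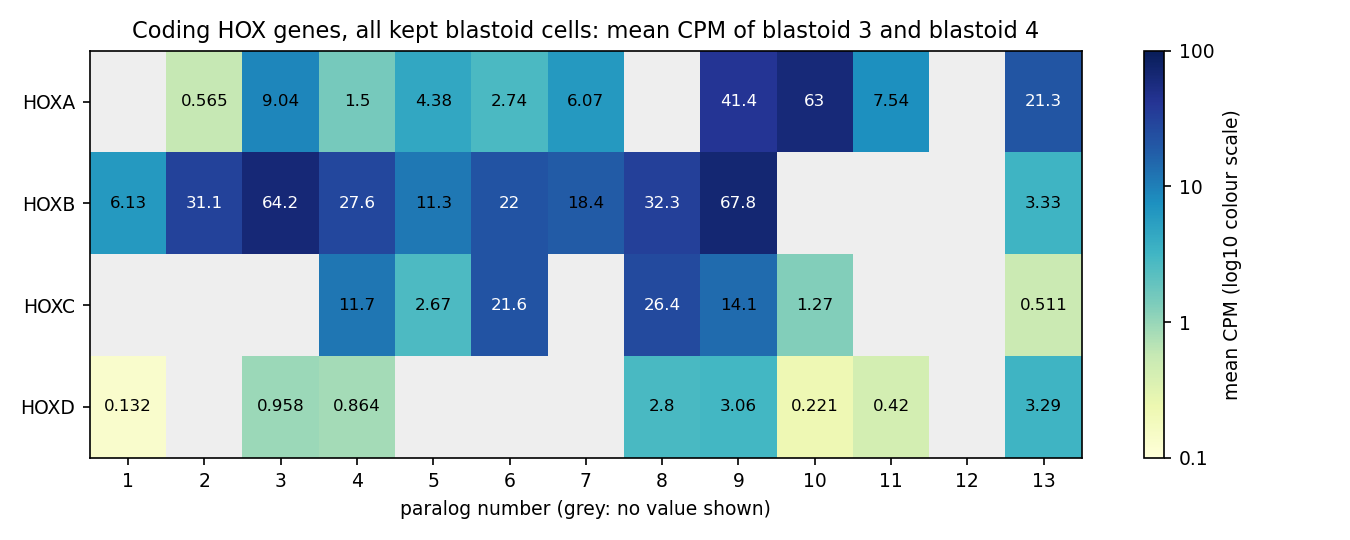
Mean CPM over blastoid 3 and blastoid 4 (all kept cells) for each coding HOX gene, with clusters as rows, paralog numbers as columns, a log10 colour scale and grey where no value is shown. The highest coding genes are HOXB9, HOXB3, HOXA10 and HOXA9, and the HOXD row does not pass 3.29 CPM.

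HOXB-AS3, a noncoding RNA read from the strand opposite HOXB3 to HOXB6, was the highest member. It stood at 256.2 CPM in blastoid 3 and 173.0 CPM in blastoid 4 and made up 27.5% of the HOX signal, at least 632-fold above the hESC samples. The counting is not stated to use strand, and HOXB-AS3 (chr17:48549630-48606414, plus strand) overlaps HOXB3, HOXB4, HOXB5 and HOXB6 on the minus strand, so reads of these genes cannot be fully told apart. The same holds for HOXA-AS3 with HOXA3 to HOXA7, and for coding neighbours with nested gene models such as HOXA9 with HOXA10 and HOXB7 with HOXB8 and HOXB9.

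The sequences around the start sites of 4 members are printed because these members carry the class pattern described further on: HOXB-AS3, HOXA10 and HOXA9 marked the mesoderm/mesenchyme-like cells, and HOXB1 also had UMIs in pluripotent-like cells. Each runs from 250 bases before to 50 bases after a start site in RefSeq (GRCh38.p14), 5′ to 3′ on the gene's strand. Capitals mark TTTATG or its reverse complement, the core of a CDX site, and TGATNNAT, a HOX and PBX site, or its reverse complement.
HOXB-AS3, chr17:48595708-48596007, plus strand: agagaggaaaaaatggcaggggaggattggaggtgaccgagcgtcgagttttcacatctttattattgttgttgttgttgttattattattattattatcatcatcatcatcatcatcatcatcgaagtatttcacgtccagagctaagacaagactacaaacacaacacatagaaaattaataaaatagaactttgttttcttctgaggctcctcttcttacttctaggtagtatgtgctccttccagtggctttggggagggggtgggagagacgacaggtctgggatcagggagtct
HOXA10, chr7:27179812-27180111, minus strand: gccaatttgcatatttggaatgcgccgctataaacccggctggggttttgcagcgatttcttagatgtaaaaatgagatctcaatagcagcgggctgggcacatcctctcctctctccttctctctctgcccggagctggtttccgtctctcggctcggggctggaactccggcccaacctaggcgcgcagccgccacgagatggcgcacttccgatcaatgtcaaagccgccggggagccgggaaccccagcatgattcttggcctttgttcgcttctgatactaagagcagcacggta
HOXA9, chr7:27165488-27165787, minus strand: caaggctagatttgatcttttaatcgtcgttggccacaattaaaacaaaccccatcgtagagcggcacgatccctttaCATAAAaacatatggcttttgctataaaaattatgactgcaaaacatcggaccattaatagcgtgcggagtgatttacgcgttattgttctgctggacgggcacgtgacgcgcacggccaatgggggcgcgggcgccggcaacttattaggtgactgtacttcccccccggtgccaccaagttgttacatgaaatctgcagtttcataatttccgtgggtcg
HOXB1, chr17:48530962-48531261, minus strand: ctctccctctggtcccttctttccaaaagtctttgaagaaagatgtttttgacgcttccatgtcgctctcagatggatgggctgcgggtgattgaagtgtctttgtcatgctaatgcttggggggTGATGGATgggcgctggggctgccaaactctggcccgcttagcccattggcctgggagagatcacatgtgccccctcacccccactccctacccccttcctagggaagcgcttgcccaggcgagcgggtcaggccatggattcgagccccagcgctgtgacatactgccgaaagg
HOXA9 holds TTTATG once on its reverse strand and HOXB1 holds TGATNNAT once, while the other windows printed hold neither. Of the 32 windows that RefSeq gave for 25 of the 44 members, 1 of them shared by HOXC4 and HOXC5, 4 held TTTATG, against 10.6% of all 35116 windows, and 4 held TGATNNAT, against 7.40%. AGGTCA, the retinoic acid receptor core site, was in 0 of the 32 and in 13.8% of all windows, both strands read in each case. A match describes these letters in these windows and is not a bound site. The HOXB-AS3 start shown had 6 CG pairs and 40.7% G and C, and HOXA9 had 22 CG pairs, beside a median of 14 over all windows.

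Coding members of the HOXB cluster followed HOXB-AS3. HOXB9, a thoracic and lumbar patterning gene, was at 84.6 CPM in blastoid 3 and 51.1 CPM in blastoid 4. HOXB3, a hindbrain and pharyngeal gene, was at 81.1 and 47.4 CPM. Both were higher in blastoid 3, and their levels differed from each other by less than the difference between samples. HOXB8 was at 38.7 and 25.9 CPM, HOXB4, a regulator of blood stem cells, at 29.3 and 25.9 CPM and HOXB6 at 24.96 and 19.03 CPM. HOXB2, active in hindbrain, was at 26.1 and 36.1 CPM, the only leading HOXB member with its higher value in blastoid 4. The fold above hESC was at least 199 for HOXB9, 188 for HOXB3, 95.1 for HOXB8, 94.4 for HOXB2, 82.2 for HOXB4 and 65.1 for HOXB6.

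In HOXA the high numbers led. HOXA10, known for limb, uterine and blood patterning, was at 77.1 CPM in blastoid 3 and 48.9 CPM in blastoid 4. HOXA9, its neighbour and a blood stem cell regulator, was at 46.87 and 35.99 CPM. HOXA13, the most posterior gene of the cluster, which patterns digits, hindgut and the urogenital tract, was at 26.2 and 16.3 CPM. All 3 were higher in blastoid 3, and they were at least 185-fold, 123-fold and 62.4-fold above hESC. Lower numbers of this cluster, HOXA2 to HOXA7, ranged from 0.565 to 9.04 CPM in the mean of the blastoid samples.

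HOXC was led by HOXC8 at 33.4 CPM in blastoid 3 and 19.3 CPM in blastoid 4, a brachial and thoracic gene, and by HOXC6 at 28.3 and 15.0 CPM. HOXD was led by HOXD13, the distal limb gene, at only 3.91 and 2.68 CPM. These were at least 77.1-fold, 63.1-fold and 9.70-fold above hESC. HOXC and HOXD also had the members nearest to nothing, such as HOXD1 with 4 UMIs in blastoid 3 and 0 in blastoid 4. Across all 44 members, 40 were higher in blastoid 3 than in blastoid 4.

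The comparison of all kept cells asks which genes differ between blastoids and stem cells. In the edgeR quasi-likelihood test on sums per sample, 37 of the 44 members passed the filter on low counts and all 37 were called higher at a Benjamini-Hochberg adjusted p under 0.05. Of all 16342 genes tested, 27.3% were called higher and 23.0% lower. Members with 0 UMIs in the stem cells passed the filter only through the blastoids and so had to differ, and nothing is read from the count. The bounds on the fold of the called members ran from 2.54 (HOXD4) to 632 (HOXB-AS3), with a median of 25.7. HOXA2, HOXB-AS2, HOXC13, HOXC-AS2, HOXD1, HOXD10 and HOXD11 did not pass the filter. DESeq2 called 37 higher and 0 lower, beside 15.0% and 12.1% of all genes fitted. Without the shared barcodes 34 members were tested and called by edgeR. Sums over all cells move with the make-up of a sample, and fewer cells of a type and less RNA per cell cannot be told apart in them.

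Within blastoids the mesoderm/mesenchyme-like cells held nearly all of the HOX RNA. The summed level of all members was 1187 CPM in blastoid 3 and 993 CPM in blastoid 4 in these cells. It was 138.5 and 134.1 CPM in trophectoderm/amnion-like cells and 99.8 and 60.4 CPM in the few pluripotent-like cells. The lower mesoderm/mesenchyme-like value lay above every value of the other classes. Without the shared barcodes the 3 values of blastoid 4 were 987, 165.3 and 142.2 CPM, the last from 12 cells, and the mesoderm/mesenchyme-like value was again the highest. In mesoderm/mesenchyme-like cells the samples were also nearer to each other than in all cells, where blastoid 3 had the larger share of this class.

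**Figure D2:**
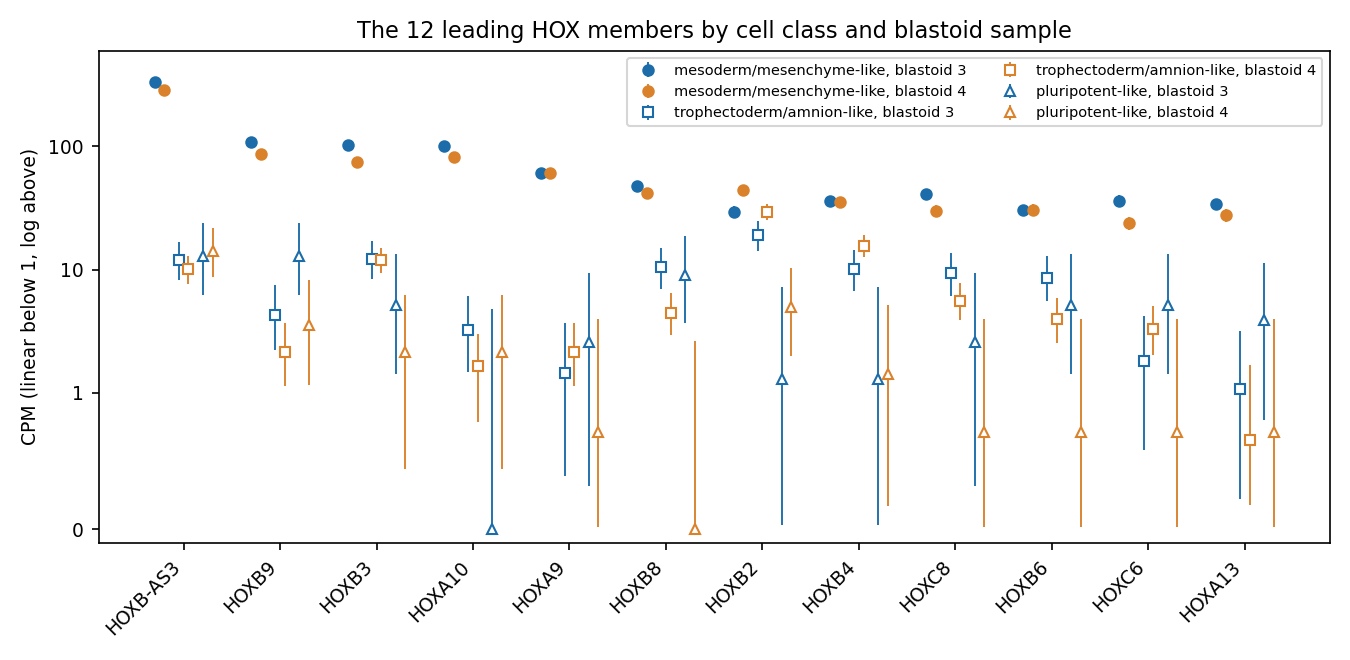
CPM of the 12 leading HOX members in each blastoid sample and cell class, on an axis that is linear below 1 and logarithmic above, with bars for the exact 95% Poisson interval (counting error only). The mesoderm/mesenchyme-like values lie above the other classes for each gene, and for HOXB2 the trophectoderm/amnion-like values come closest.

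The difference between these classes was tested with library as a block. Of 35 members that passed the filter, 32 were called higher in mesoderm/mesenchyme-like cells, beside 24.9% of all 14677 genes tested, and 0 were called lower, beside 26.2%. The count includes HOXA6, HOXC10, HOXC-AS1 and HOXD9, which had 0 UMIs in trophectoderm/amnion-like cells and passed the filter only through the other class. Members with few UMIs there also passed only through the other class, such as HOXA-AS3 (1 and 0), HOXA7 (0 and 3) and HOXA11 (2 and 1). Nothing is read from the part of the count that these members make up. At an unadjusted p under 0.05, 1 member was lower, and DESeq2 called 25 members higher and 0 lower, beside 7.09% and 8.62% of all genes fitted. Without the replicate block edgeR called 30 higher, beside 15.1%, with 17.0% of all genes lower. The members' median log2 difference was 3.20, or 3.097 with 4 members at their bound, against 0.01 over all genes. Both medians include the members with few UMIs that passed only through the other class, so nothing is read from their size. HOX genes were not used to form the classes.

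HOXA10 was at 100.2 CPM in mesoderm/mesenchyme-like and 3.23 CPM in trophectoderm/amnion-like cells of blastoid 3, and at 82.9 and 1.64 CPM in blastoid 4. HOXA9 was at 60.9 against 1.44 CPM and at 60.6 against 2.13 CPM. HOXB9 was at 108.9 against 4.31 CPM and at 86.2 against 2.13 CPM. For these 3 genes the trophectoderm/amnion-like level was 1.98% to 3.95% of the mesoderm/mesenchyme-like level. The log2 difference was 5.21 ± 0.19 (SE, 2 samples per class) for HOXA10, 4.89 ± 0.17 for HOXB9 and 4.84 ± 0.21 for HOXA9. HOXB-AS3, at 332.2 against 11.8 CPM in blastoid 3 and 289.7 against 10.0 CPM in blastoid 4, differed by 4.69 ± 0.10, and HOXA13, at 33.8 against 1.08 and 27.7 against 0.657 CPM, by 5.06 ± 0.28. The edgeR adjusted p of these 5 members ran from 9.5e-12 (HOXB-AS3) to 2.5e-08 (HOXA13). HOXA13 had only 3 and 4 UMIs in trophectoderm/amnion-like cells and passed the filter only through the mesoderm/mesenchyme-like class. Nothing is read from its adjusted p or from the size of its difference.

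Some members had no UMI at all in the trophectoderm/amnion-like cells, which allows up to 3 counts over both sums. HOXD9, a limb and lumbar gene, had 51 UMIs (blastoid 3) and 49 UMIs (blastoid 4) in the mesoderm/mesenchyme-like cells, a level at least 13.5-fold higher. HOXA6 had 44 and 46 UMIs and was at least 12.1-fold higher. HOXC-AS1 (30 and 23 UMIs) and HOXC10 (24 and 17 UMIs) were at least 7.15-fold and 5.53-fold higher. HOXA-AS3 had 313 and 72 UMIs against 1 and 0, a ratio of 156 with an exact 95% counting interval of 27.8 to 6172. DESeq2 did not call HOXA6 (log2 6.43, adjusted p = 0.297) or HOXC10 (log2 5.25, adjusted p = 0.073), while edgeR did.

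A few members differed little or were not called. HOXB2 was at 29.6 CPM in mesoderm/mesenchyme-like and 19.0 CPM in trophectoderm/amnion-like cells of blastoid 3, and at 44.3 and 29.2 CPM in blastoid 4. Its log2 difference was 0.47 ± 0.13 with an edgeR adjusted p of 0.0092, which neither DESeq2 (adjusted p = 0.26) nor the fit without the replicate block (adjusted p = 0.33) called. HOXB-AS1, which overlaps HOXB2 and HOXB3 on the other strand, was at 6.16 against 6.82 CPM and at 4.80 against 7.88 CPM, a log2 difference of -0.61 ± 0.26 (edgeR adjusted p = 0.069). HOXC5 differed by 0.54 ± 0.46 (edgeR adjusted p = 0.36). These last 2 were among the 3 tested members not called. HOXC13, chosen for mention after its values were seen and below the filter, had 1 and 4 UMIs in mesoderm/mesenchyme-like and 6 and 5 UMIs in trophectoderm/amnion-like cells.

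The 17 members with at least 100 UMIs in the mesoderm/mesenchyme-like cells of both samples had trophectoderm/amnion-like levels between 2.36% and 64.3% of the mesoderm/mesenchyme-like level in blastoid 3 (median 11.8%) and between 1.58% and 66.0% in blastoid 4 (median 13.02%). HOXA10 was at 3.22% and 1.98%, HOXB-AS3 at 3.56% and 3.46%, HOXB4 at 28.0% and 44.2% and HOXB2 at the top of both ranges. The 19 fixed mesoderm markers, read the same way, ranged from 0% to 105.5% in blastoid 3 (median 7.27%) and from 0% to 120.5% in blastoid 4 (median 8.69%), with the collagen gene COL1A2 at the top in both. The marker ranges run from 0% to above the mesoderm/mesenchyme-like level itself. Any member lower in trophectoderm/amnion-like cells had to lie within them, so nothing is read from that. These markers were also used to name the classes. The part of RNA free in the droplets in the HOX shares was not tested. By paralog band, groups 1 to 3 were at 21.6% and 36.3%, groups 4 to 8 at 22.1% and 22.9%, and groups 9 to 13 at 4.97% and 3.03%. In trophectoderm/amnion-like cells HOXB2 alone gave 53 of the 105 UMIs of groups 1 to 3 in blastoid 3 and 178 of 317 in blastoid 4. HOXB3, of the same band, was at 11.8% and 16.1%. The median depth of the 2 classes was 6179 and 6231 UMIs in blastoid 3 and 8415 and 9055 UMIs in blastoid 4.

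**Figure D3:**
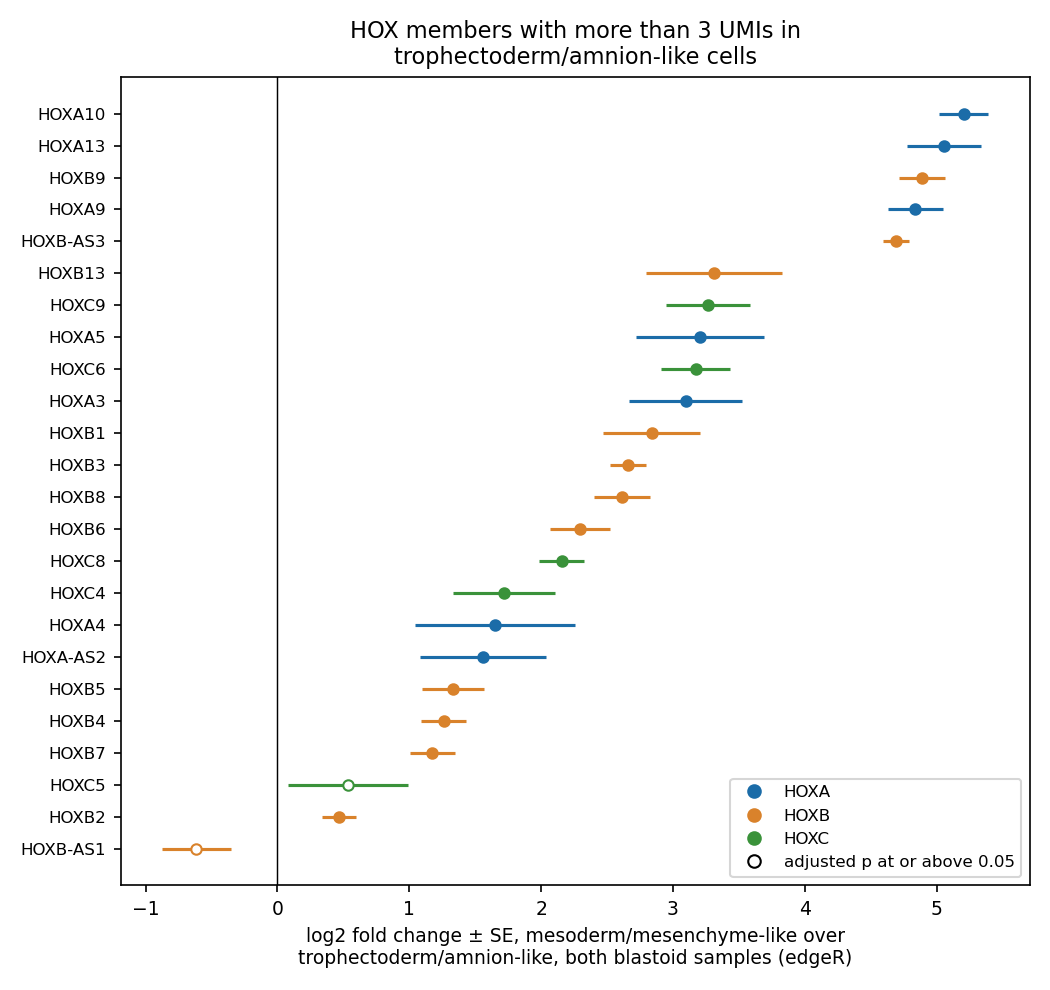
The log2 fold change (± SE) of mesoderm/mesenchyme-like over trophectoderm/amnion-like cells for HOX members with more than 3 UMIs in the latter, 1 of them left out, coloured by cluster, with open circles for an adjusted p at or above 0.05. HOXA10, HOXA13, HOXB9, HOXA9 and HOXB-AS3 lie between 4.69 and 5.21, and HOXB2 and HOXC5 lie near 0. HOXA13 passed the filter only through the mesoderm/mesenchyme-like cells, so nothing is read from the size of its difference.

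The size of the difference depended on the library for several members. Without blastoid 4, the log2 difference was 4.34 for HOXC6 and 1.81 for HOXB6, against 3.17 and 2.30 with both. Without blastoid 3 it was 2.94 for HOXB6, 3.24 for HOXB8 (2.61 with both) and 4.75 for HOXD13 (3.54 with both). With 1 sum per class these values have no test. HOXD13 had only 2 UMIs (blastoid 3) and 1 UMI (blastoid 4) in trophectoderm/amnion-like cells, so nothing is read from its move. The HOXC6 value without blastoid 4 rests on 5 UMIs in these cells. Without the shared barcodes 30 members were tested and 28 called, the 4 that were no longer called being HOXA4, HOXC10, HOXC-AS1 and HOXD-AS2.

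The pluripotent-like cells of the blastoids, 84 in blastoid 3 and 109 in blastoid 4, held few HOX UMIs. Of these, 83 and 108 were in cluster 10, named on 15 pluripotent-like markers against 14 trophectoderm/amnion-like ones. In this class the pluripotent-like markers summed to 3839 and 3642 CPM and the trophectoderm/amnion-like ones to 2942 and 2622 CPM. In the comparison with hESC cells of the same class, 3 members passed the filter, among them HOXB-AS3 and HOXB9, and all 3 were called higher, beside 12.9% of 14006 genes, and 11.6% of all genes were called lower. They too passed only through the blastoids, and nothing is read from the count. HOXB-AS3 was at 12.96 and 14.21 CPM (10 and 20 UMIs), and HOXB9 at 12.96 and 3.55 CPM (10 and 5 UMIs). HOXB-AS3 thus stood at 3.90% and 4.91% of its mesoderm/mesenchyme-like level, while the 19 mesoderm markers summed to 6.34% and 4.95% of theirs in the same cells (median 3.16% and 3.58%). The part of RNA free in the droplets was not tested. Without blastoid 4 no member passed the filter, and without the shared barcodes, which left 12 cells of blastoid 4, none did either. DESeq2, fitted on 26 members, called 13 higher and 0 lower, beside 4.78% and 3.32% of all genes fitted.

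HOXB1, the lowest number of its cluster and a hindbrain gene, also had UMIs in these cells. It was at 5.18 CPM in blastoid 3 and 7.11 CPM in blastoid 4 (4 and 10 UMIs), against 6.25 and 10.5 CPM in mesoderm/mesenchyme-like cells. HOXA10, by contrast, had 0 and 3 UMIs, or 0 and 2.13 CPM. In the 12 cells that blastoid 4 kept without shared barcodes, HOXA10 was at 12.92 CPM, a value that rests on too few UMIs to be read. The 95% Poisson intervals of HOXB1 overlapped between the 2 classes in both samples, and this difference between classes was not tested. The primitive streak gene TBXT, a mesoderm marker of the fixed list, was at 23.3 and 29.1 CPM in these pluripotent-like cells and at 4.51 and 2.50 CPM in the mesoderm/mesenchyme-like cells, and its part in the result was not tested.

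Among the mesoderm/mesenchyme-like clusters the HOX level and its paralog make-up differed. Cluster 9 had the genes of early mesoderm among its leading genes (MESP1, MSGN1, MIXL1, CDX4) and held 221 cells of blastoid 3 and 42 of blastoid 4. Cluster 7 was led by matrix and fibroblast genes (POSTN, MGP, DCN, COL3A1) and held 326 and 119 cells. HOXB-AS3 was at 875.4 and 650.7 CPM in cluster 9, at 331.9 and 334.9 CPM in cluster 3 (TECRL, TMEM88, BMP4), at 287.0 and 306.7 CPM in cluster 6 (PITX1 and cell cycle genes), at 100.8 and 67.3 CPM in cluster 11 (SOST, NTRK2, MEF2C) and at 29.5 and 37.3 CPM in cluster 7. Both samples gave the same order, and clusters 3 and 6 lay close together. Without the shared barcodes HOXB-AS3 in blastoid 4 was at 778.3 CPM in cluster 9, 325.4 CPM in cluster 3, 273.2 CPM in cluster 6, 79.9 CPM in cluster 11 and 61.1 CPM in cluster 7, again in that order.

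Paralog groups 9 to 13 made up 60.9% (95% exact interval 58.0 to 63.7) of the coding HOX UMIs of cluster 7 in blastoid 3 and 59.7% (55.5 to 63.8) in blastoid 4. In cluster 9 they made up 35.5% (33.5 to 37.5) and 36.9% (32.5 to 41.3). Clusters 3 and 6 lay between, at 38.39% to 45.04%, and cluster 11 was at 62.1% and 63.8%. Groups 1 to 3 went the other way, with 7.86% and 10.3% in cluster 7 and 23.7% and 22.4% in cluster 9. Their share was highest in cluster 3, at 26.5% and 25.4%. The level of groups 9 to 13 was nevertheless lower in cluster 7 (330 and 321 CPM) than in cluster 9 (488 and 387 CPM). Groups 1 to 3 were at 42.6 and 55.4 CPM in cluster 7 and at 325.6 and 235.0 CPM in cluster 9. The intervals cover counting error only. Without the shared barcodes groups 9 to 13 made up 53.0% in the 62 cells of cluster 7 and 38.8% in the 13 cells of cluster 9 that blastoid 4 kept. Cluster 3 was then at 37.7%, below cluster 9, so its place relative to cluster 9 turned in that sample. In trophectoderm/amnion-like cells groups 9 to 13 made up 14.9% and 7.98%.

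**Figure D4:**
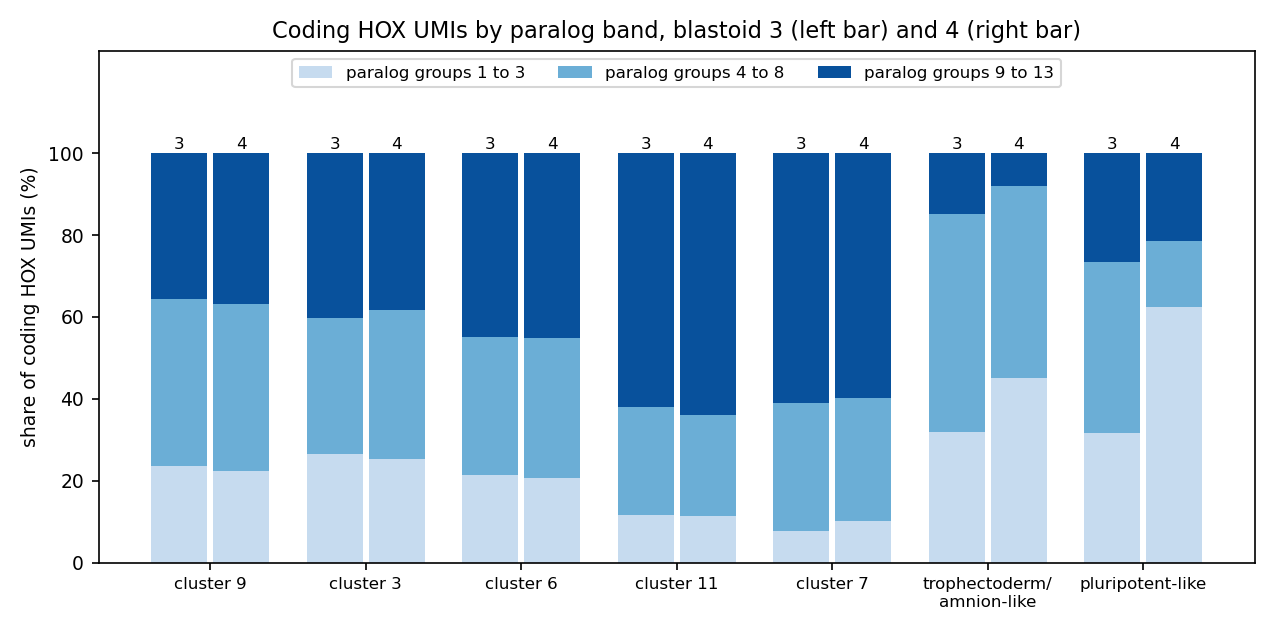
Share of coding HOX UMIs (percent) from paralog groups 1 to 3, 4 to 8 and 9 to 13 in each mesoderm/mesenchyme-like cluster and in the other blastoid classes, with the left bar for blastoid 3 and the right bar for blastoid 4. Groups 9 to 13 hold about 60% of clusters 7 and 11, 35% to 37% of cluster 9 and under 15% of the trophectoderm/amnion-like cells.

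Clusters 7 and 9 were then compared in an edgeR fit with library as a block, a comparison chosen after the HOX values had been seen. Of 23 members tested, 3 were called higher in cluster 7, beside 16.4% of 10474 genes, and 16 were called lower, beside 14.6%. The share called higher was near the background, and nothing is read from that count. The 3 were HOXA11 (log2 1.21 ± 0.31), HOXA13 (1.17 ± 0.22) and HOXB13 (31 and 26 UMIs in cluster 7, 3 and 0 in cluster 9). HOXB13 passed the filter only through cluster 7, so nothing is read from its call. HOXA13 was at 75.3 and 63.1 CPM in cluster 7 and at 31.0 and 39.2 CPM in cluster 9. HOXA10 was at 120.2 and 117.5 CPM against 104.4 and 80.5 CPM and was not called (log2 0.36 ± 0.15). DESeq2 called 0 members higher (2 at an unadjusted p under 0.05) and 11 lower, beside 2.02% and 1.31% of all genes fitted. Without the replicate block edgeR called 3 higher and 14 lower, beside 9.52% and 7.31%.

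The members called lower in cluster 7 were coding genes with numbers up to 9 of HOXA, HOXB and HOXC and the antisense RNAs HOXA-AS3 and HOXB-AS3. The log2 difference was -4.56 ± 0.13 for HOXB-AS3, -3.26 ± 0.30 for HOXC4, -2.55 ± 0.19 for HOXB3 and -2.36 ± 0.17 for HOXB9. It was -4.83 ± 0.37 for HOXA3, whose level in cluster 7 was very low. HOXA-AS3 had 1 and 1 UMI in cluster 7 and 222 and 45 UMIs in cluster 9. HOXA-AS3, HOXA3 and any other member with so few UMIs in cluster 7 passed the filter only through cluster 9. Nothing is read from their calls, from the size of their differences or from their part of the count. HOXC6, a brachial gene, was at 19.6 and 25.8 CPM in cluster 7 and at 119.9 and 69.6 CPM in cluster 9. No HOXD member had enough UMIs to be tested. Without the shared barcodes the calls were 3 higher and 17 lower.

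HOXA3 and HOXA-AS3, chosen after their values were seen, were several-fold higher in blastoid 3. HOXA-AS3 was at 21.0 CPM in blastoid 3 and 4.07 CPM in blastoid 4, and HOXA3 at 14.6 and 3.52 CPM. Cluster 9 held 9.70% of the kept cells of blastoid 3 and 2.17% of those of blastoid 4. Within cluster 9 HOXA-AS3 was at 132.4 and 97.9 CPM and HOXA3 at 77.5 and 47.9 CPM. Within cluster 3 HOXA-AS3 was at 11.5 and 2.63 CPM and HOXA3 at 12.7 and 2.93 CPM, so blastoid 3 remained higher there too. The 2 genes overlap on opposite strands.

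Cells with several HOX genes were common in the mesoderm/mesenchyme-like class. With each cell thinned to 2000 UMIs and shallower cells left out (33 and 21 in this class), 81.3% of these cells in blastoid 3 and 80.7% in blastoid 4 had a UMI of any member, and the mean was 1.86 and 1.62 members per cell. In trophectoderm/amnion-like cells 27.1% and 19.1% had any, in pluripotent-like cells 12.3% and 8.33%, and in cluster 9 the mean rose to 3.45 and 2.60 members per cell. Without thinning the shares were 95.8% and 97.8%, 48.5% and 56.0%, and 36.9% and 33.0%. Over all kept cells the thinned mean was 1.54 in blastoid 3, 1.08 in blastoid 4 and 0 in both hESC samples, with a two-sided exact permutation p of 0.33, the smallest that 2 against 2 samples allow. HOXB-AS3 alone was found in 35.7% and 35.6% of the thinned mesoderm/mesenchyme-like cells and in 3.04% and 1.13% of the trophectoderm/amnion-like cells. HOXB2 was found in 5.27% and 8.69% of the former and in 5.25% and 5.66% of the latter.

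**Figure D5:**
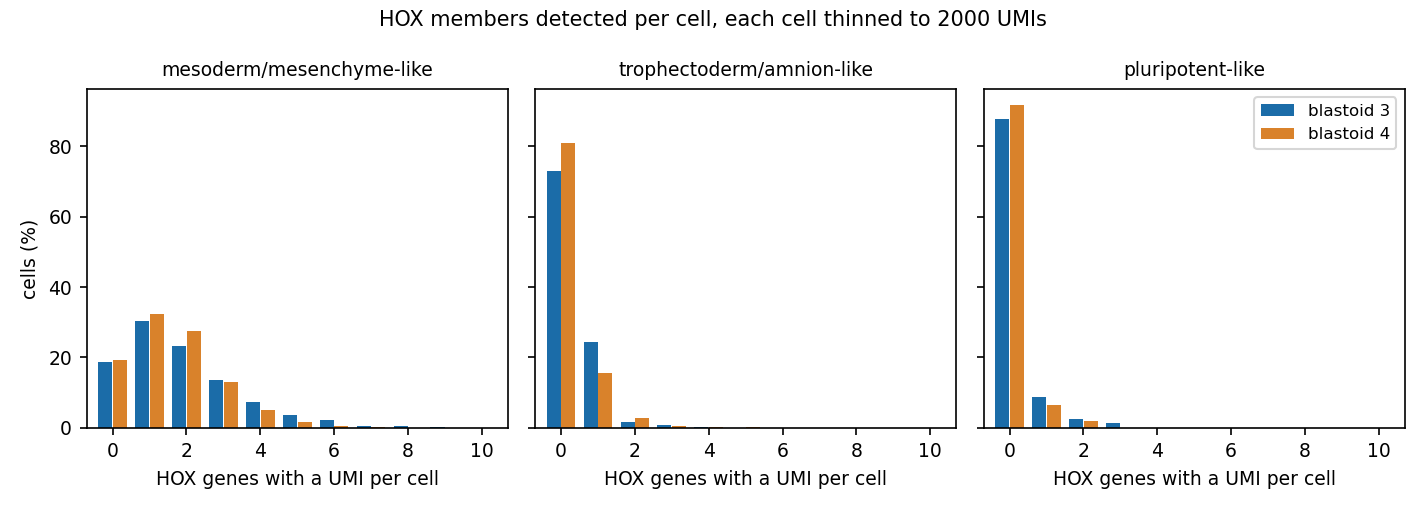
Percent of cells by the number of HOX members with a UMI, each cell thinned to 2000 UMIs, in the 3 named blastoid classes, with blastoid 3 in blue and blastoid 4 in orange. Most mesoderm/mesenchyme-like cells have 1 or more, while most cells of the other classes have 0.

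Genes that act with or on HOX genes were read from 6 lists in the comparison of all kept cells, where the median log2 difference of all genes was 0.05. Listed genes at 0 in the stem cells, among them HOTAIRM1, MEIS1, MEIS2, CDX1 and CDX2, passed the filter only through the blastoids, so their part of each count is a description. Beside each count stand the 27.3% of all genes called higher and the 23.0% called lower in this comparison. Of the 8 other noncoding RNAs of the HOX loci, 3 were tested and 3 rose. HOTAIRM1 was at 26.1 and 16.9 CPM in the blastoids and 0 in hESC, at least 63.2-fold higher, and HOXA10-AS at least 15.0-fold higher. HOTTIP and HOTAIR did not reach 1 CPM in any sample. Of the TALE homeodomain proteins, which bind DNA together with HOX proteins, 5 of 9 rose and 0 fell, beside 27.3% and 23.0% of all genes. MEIS2 was at 137.1 and 94.7 CPM and MEIS1 at 37.9 and 40.4 CPM in the blastoids, at least 342-fold and 117-fold above hESC where neither was listed. Of these, MEIS1 was lower in mesoderm/mesenchyme-like than in trophectoderm/amnion-like cells (log2 -1.44 ± 0.12).

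Caudal and axial genes known to act upstream of the clusters rose in 6 of 6 tested, beside 27.3% of all genes. Among them CDX1, CDX2 and TBXT were at 0 in hESC and passed the filter only through the blastoids. FGF8 and WNT3A were on the list but not tested. FGF8 went the other way, with 9 and 5 UMIs in hESC and 0 in each blastoid sample. CDX2 was at 68.1 and 49.9 CPM and CDX1 at 7.48 and 4.24 CPM in the blastoids, at least 174-fold and 17.1-fold above hESC. CDX2 was also higher in mesoderm/mesenchyme-like than in trophectoderm/amnion-like cells (log2 2.44 ± 0.13). The median of the list was 8.04, or 3.89 with 3 genes at their bound. Of 15 tested genes of retinoic acid, 7 rose and 3 fell, beside 27.3% and 23.0% of all genes, with a median of 0.30. The synthesis enzyme ALDH1A2 was at 2.18 and 2.18 CPM and the degrading enzyme CYP26B1 at 1.99 and 2.06 CPM in blastoids, at least 6.53-fold and 6.07-fold above hESC. CRABP1, a carrier of retinoic acid, fell by 2.45 ± 0.14 on the log2 scale and ALDH1A3 fell by 2.25 ± 0.26.

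Of 17 Polycomb genes, 5 rose and 3 fell, beside 27.3% and 23.0% of all genes, so the shares were near the background, with a median log2 difference of 0.16. BMI1 rose by 2.88 ± 0.20 and CBX8 by 2.41 ± 0.48, while JARID2, which recruits the H3K27 methyltransferase in stem cells, fell by 1.69 ± 0.13 and CBX2 fell by 0.72 ± 0.17. Of 11 Trithorax genes and H3K27 demethylases, 1 rose and 2 fell, beside 27.3% and 23.0% of all genes, with a median of -0.07. KDM6B, which removes H3K27 methylation, rose by 2.66 ± 0.15, from 6.64 and 6.35 CPM in hESC to 46.3 and 43.4 CPM in blastoids. WDR5 fell by 0.51 ± 0.15 and DPY30 fell by 0.61 ± 0.13. In this list the counts depended on the scaling, with 3 higher and 1 lower by library size alone, and on the samples, with 0 lower when either hESC sample was left out.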

How the data were processed

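The 44 members and all gene lists were chosen with earlier results of these data known. For each sample the authors deposited a table of unnormalized UMI counts, genes by barcodes. The submitters' processing notes name Cell Ranger and GRCh38, with no version, and filters and use of strand are not given in the sources used here. Every value was a whole number, and no table holds a barcode under 201 genes or above 20% mitochondrial UMIs.

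From these counts, cells were kept with at least 500 genes and no Scrublet call (56 of 9680 barcodes, 0.58%, 0 in hESC 2, so doublets may remain), leaving 9624. They were clustered on 2000 variable genes without HOX genes (30 principal components, 15 neighbours, Leiden resolution 0.5; scanpy 1.11.5, leidenalg 0.10.2) and named by the class with most fixed markers in at least 10% of cells. A cluster far shallower than its samples, with no marker of its class among its leading genes, was left unnamed. UMIs were summed per sample, class or cluster and tested with edgeR 4.0.16 (TMM, filterByExpr, quasi-likelihood, Benjamini-Hochberg threshold 0.05). DESeq2 1.42.0 was an alternative, beside other scaling, filters, clusterings, thinning depths and left-out samples. A gene missing from a table was set to 0. In simulated counts with 200 genes changed, the fit was tested for recovery before use. Intervals and floors cover counting error only.

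Members named with values were the 12 highest in blastoids, the highest of each cluster and the 6 largest called class differences in each direction. The 5 highest in hESC could not be named because none was listed. Of each list up to 4 genes were named by size of change. Members named elsewhere were chosen after their values were seen. Values of some genes are not reported here.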

Additional observations from a re-analysis of the deposited data

How the results depend on the processing

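In the comparison of all kept cells, the number of HOX members called higher stayed between 34 and 39 under every alternative, and leaving out each sample gave 35 to 38. Between mesoderm/mesenchyme-like and trophectoderm/amnion-like cells, it was 25 with DESeq2, 28 without shared barcodes and 30 with no replicate block. It was 31 to 34 under the other alternatives tested, and 1 member was called lower with no filter on low counts. The size of this difference depended on how cells were named. With each cell named by its markers the members' median log2 difference was 1.90, against 3.20 in the main fit. Without shared barcodes it was 2.71. In pluripotent-like cells 3 members were called, against 13 with DESeq2 and 11 with no filter, where more members were tested, 0 without shared barcodes, where none passed the filter, and 0 to 3 when each sample was left out. Between cluster 7 and cluster 9, 0 members were called higher with DESeq2; the cause was not tested. The mean number of members per blastoid cell was 0.715 at 1000 UMIs, 2.31 at 4000 UMIs and 3.51 with no thinning, as detection grows with depth. Of the lists, TALE genes called lower reached 2 when a sample was left out (range 0 to 2), caudal genes called lower were 1 with DESeq2 and 1 with no filter, and Polycomb genes called lower ranged from 1 to 4 when each sample was left out. Trithorax genes called higher were 3 with library size only, 2 with all deposited barcodes, 2 without shared barcodes and 1 to 4 when each sample was left out. Those called lower were 1 with library size only, 1 with DESeq2 and 0 to 3 when each sample was left out. The cause of these was not tested. Scaling by library size alone moved the median of all genes from 0.05 to 0.18 in the comparison of all kept cells and from 0.01 to 0.16 between classes. Among the 18 members named by rule, 10 calls between classes or between clusters 7 and 9 were lost with DESeq2 or with no replicate block, and 13 values moved when a blastoid sample was left out, with no change of direction. Members outside the rule also lost calls, HOXA4 and HOXD-AS2 among them. No paired analysis was possible because the hESC and blastoid samples share no replicate number. In the class comparison the library was the block.

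Depth limits the low members: 9 were below 1 CPM in blastoids, and the bounds against hESC rest on tables that list few genes seen in under 3 barcodes. With 2 samples per group, the spread is known only roughly.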

Other observations

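The coding genes beside the HOX clusters were read in the comparison of all kept cells, on a list chosen after the HOX values were seen: the 3 nearest protein-coding genes on each side of each cluster in GENCODE 29, 24 in all. Of 23 tested, 7 were called higher and 4 lower in blastoids by edgeR at an adjusted p under 0.05, beside 27.3% and 23.0% of all genes tested, so the shares were near the background and nothing is read from the count. SKAP2, a signalling adaptor 97.8 kb from HOXA, was at 4.38 and 4.34 CPM in the hESC samples and 42.2 and 36.1 CPM in the blastoids, a rise of 3.03 ± 0.16 on the log2 scale. LNPK, 90.1 kb from HOXD, was at 11.995 and 11.63 CPM in hESC and 85.6 and 54.9 CPM in blastoids (log2 2.43 ± 0.20), while MTX2, on the other side of HOXD, fell by 0.62 ± 0.13. The HOX-related gene EVX1, 42.6 kb from HOXA, was listed in the blastoids alone, at 7.94 and 4.35 CPM. It was at 10.07 and 7.21 CPM in mesoderm/mesenchyme-like cells and at 0 and 0.164 CPM in trophectoderm/amnion-like cells. EVX1 passed the filter of the class comparison only through the former class, so nothing is read from its call there. PRAC1, which lies inside HOXB next to HOXB13, was at 8.94 and 6.42 CPM in blastoids and not listed in hESC. SKAP2 was slightly lower in mesoderm/mesenchyme-like cells (log2 -0.36 ± 0.13), unlike most HOX members.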
